A study of Schmidtea mediterranea with 24 samples.

Results

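The comparison is that of *yki(RNAi)* with *control(RNAi)* tail fragments of the planarian *Schmidtea mediterranea* at 12 hours post amputation (hpa), over all transcripts. It rests on 6 of the 24 libraries of the series, 3 of *yki(RNAi)* tails and 3 of *control(RNAi)* tails, chosen by their labels alone. The other 18 libraries were 6 each of tails at 6 hpa, tails at 24 hpa and intact animals, again with 3 of *yki(RNAi)* and 3 of *control(RNAi)* in each, and are used here only for comparison with 12 hpa. All animals were of the asexual clonal strain CIW4. The first group had been fed double-stranded RNA against *yki* and the second a control double-stranded RNA, whose columns are headed GFP, in 3 feeds each. Both groups had received 60 Gy of radiation, which depletes the dividing stem cells, so that a loss of those cells was common to the knockdown and its control. Each library was made from polyadenylated RNA of a pool of 15 tail fragments, so the spread between libraries is that between pools and not between animals. The sample labels place the irradiation 15 days after the feeding and the amputation 24 hours later, whereas the study's methods place the amputation at that day. The ages of the animals were not given in the sources used here.

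*yki* encodes the planarian Yorkie, the transcriptional co-activator at the end of the Hippo pathway. In flies and mammals the kinases of the pathway phosphorylate Yorkie or its relatives YAP and TAZ and keep them out of the nucleus, and the unphosphorylated protein binds DNA through partner transcription factors. In planarians an amputation starts a program of wound-induced genes in muscle, epidermis and other tissues, and secreted WNT proteins and their inhibitors, made largely by muscle, then set whether a head or a tail is rebuilt.

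The 3 *yki(RNAi)* libraries held 23100266, 20573923 and 20695302 counts and the 3 *control(RNAi)* libraries 21953429, 18273182 and 23601139 counts. Values are given below in CPM, the count scaled to a common library size, and differences as log2 fold changes of *yki(RNAi)* over *control(RNAi)* with their standard error (SE) and the Benjamini-Hochberg adjusted p of edgeR's quasi-likelihood test over all 28391 transcripts tested. Calls were made at an adjusted p under 0.05 where the higher level exceeded the lower by at least 25%. *yki* itself (SmedASXL_011598) was measured at 17.2, 16.9 and 16.2 CPM in *yki(RNAi)* tails, against 105, 98.7 and 106 CPM in *control(RNAi)* tails. The knockdown tails thus held 16.3% of the control level, with a log2 fold change of -2.60 (SE 0.053, adjusted p = 2.23e-16), and reads from the fed RNA, where they were counted, would add to this level. *mer*, a homologue of the upstream Hippo regulator Merlin, was measured at 57.0 ± 3.14 CPM in *yki(RNAi)* and 58.9 ± 1.802 CPM in *control(RNAi)* tails (SD, n = 3 each), a log2 fold change of -0.033 (SE 0.050, adjusted p = 0.671). In bulk tissue, fewer cells of a type and less RNA per cell cannot be told apart, and this holds for every difference below.

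In *yki(RNAi)* tails at 12 hpa, 2718 transcripts rose and 2824 fell, which is 9.57% and 9.95% of those tested. These shares are the background for the counts of each gene list below. The median log2 fold change of all tested transcripts was 0.012. Most differences were small, since 1158 of the rises and 1202 of the falls were under 1.5-fold, and the median change of the called transcripts was 0.66 for the rises and -0.66 for the falls. Changes of 2-fold to 4-fold were seen in 517 rises and 555 falls, and changes of 4-fold or more in 193 rises and 152 falls. Abundant transcripts fell more often than they rose, with 288 lower and 96 higher of the 1590 above 100 CPM (18.1% and 6.04%). Between 1 and 10 CPM the 2 directions were closer, at 11.2% lower and 12.5% higher of 10804 transcripts. The libraries of the 2 groups did not overlap for 5369 of the 5542 called transcripts (19.5% of those tested) and for 41.4% of all tested. A lack of overlap, where given below for a called gene, therefore adds little to the call. The largest named and unnamed changes were also picked among transcripts without overlap.

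**Figure D1:**
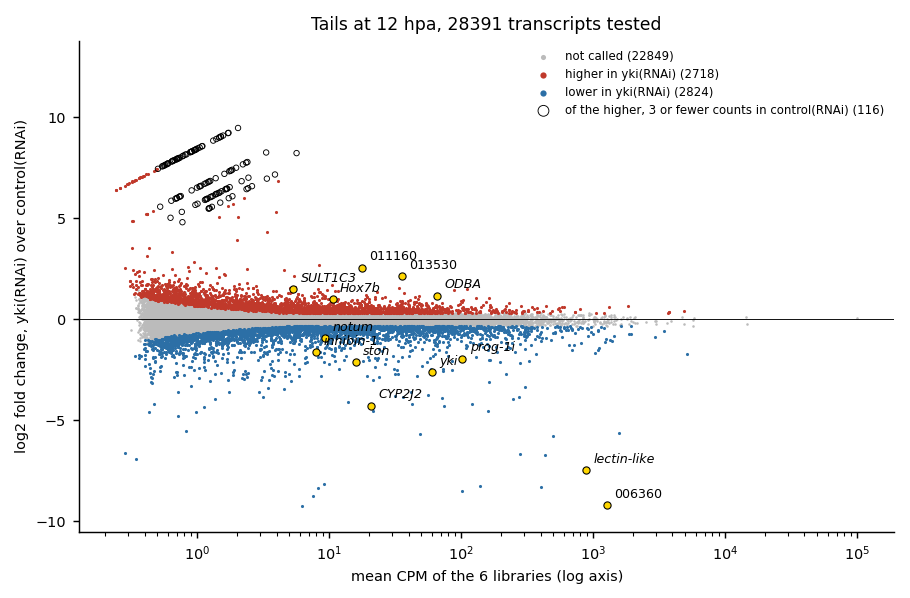
Log2 fold change of *yki(RNAi)* over *control(RNAi)* tails at 12 hpa against the mean CPM of the 6 libraries on a log axis, 1 point per tested transcript. Red points are the 2718 called higher and blue points the 2824 called lower, open circles are the 116 rises with 3 or fewer counts in the *control(RNAi)* libraries together, and yellow points are transcripts named in the text.

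The count of strong rises was set largely by 1 block of transcripts. Of the 193 rises of 4-fold or more, 116 had 3 or fewer counts in the 3 *control(RNAi)* libraries together and at least 1 CPM in *yki(RNAi)* tails, and none of the 116 carries a gene name. In *yki(RNAi)* tails their summed level at 12 hpa was 323.1, 344.0 and 225.9 CPM, against 0.7, 4.8 and 0.7 CPM in *control(RNAi)* tails. In the other states the same sum differed widely between libraries of 1 group. It was 60.3, 6.7 and 17.4 CPM in *yki(RNAi)* against 61.3, 1.6 and 0.8 CPM in *control(RNAi)* intact animals, and 103.1, 2.9 and 101.6 CPM in *yki(RNAi)* against 252.9, 0.9 and 1.1 CPM in *control(RNAi)* tails at 6 hpa. At 24 hpa the sums were 495.5, 132.8 and 383.1 CPM in *yki(RNAi)* tails and 1458.9, 85.1 and 10.4 CPM in *control(RNAi)* tails, so the highest library of all was a *control(RNAi)* library. None of these transcripts was called in either direction at 6 hpa (81 tested), 24 hpa (113 tested) or in intact animals (6 tested). The source of these reads was not tested. A total of 268 tested transcripts followed the sum of the block over the 18 other libraries (r over 0.7). These 268 include the 116, whose rise was fixed by how they were chosen, and of the other 152 transcripts 80 were higher and 1 lower at 12 hpa. Without these 268, there were 2522 rises and 2823 falls among 28123 transcripts, and 38 rises of 4-fold or more. The reverse case was rare, with 6 transcripts near 0 in *yki(RNAi)* tails, of which 5 were called lower.

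**Figure D2:**
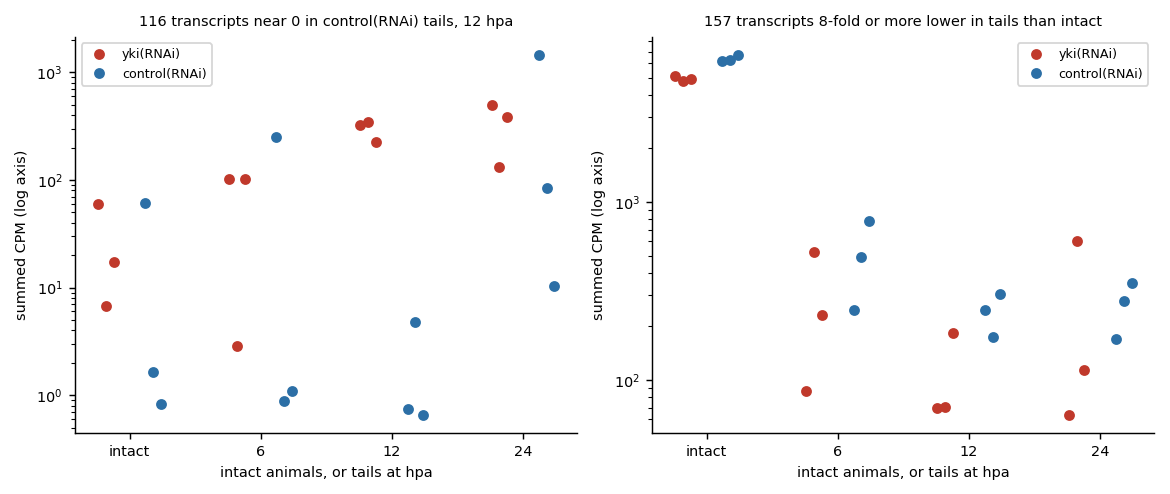
Summed CPM on a log axis in each of the 24 libraries, by state, for the 116 transcripts near 0 in *control(RNAi)* tails at 12 hpa and for the 157 transcripts that *control(RNAi)* tails lack relative to intact animals. The first sum separates the groups at 12 hpa and overlaps between them in the other states, where single libraries of a group lie far apart.

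The strongest falls were in transcripts without a gene name. SmedASXL_006360, for which the files give no name, was measured at 4.18, 4.51 and 4.12 CPM in *yki(RNAi)* tails, against 2368, 2410.0 and 2836 CPM in *control(RNAi)* tails, a log2 fold change of -9.20 (SE 0.089, adjusted p = 1.34e-20). SmedASXL_018913 had 1 count in the *yki(RNAi)* libraries together and 774 counts in the *control(RNAi)* libraries, a ratio of control over *yki(RNAi)* of 781 with a 95% counting interval of 139.7 to 30870.2. SmedASXL_069668 had 2 counts in *yki(RNAi)* and 933 in *control(RNAi)* libraries, a ratio of 470.5 (129.9 to 3890.5), and SmedASXL_074705 had 38 in *yki(RNAi)* and 12805 in *control(RNAi)* libraries, a ratio of 339.8 (247 to 480.4). These intervals cover counting error only. The levels were uneven between *control(RNAi)* libraries of other states. In *control(RNAi)* tails at 6 hpa SmedASXL_018913 was at 0.740, 0.369 and 10.2 CPM and SmedASXL_069668 at 0.542, 0.369 and 10.4 CPM. SmedASXL_006360 ran from 188 to 2556 CPM there. SmedASXL_018913 and SmedASXL_069668 were not called at 24 hpa, whereas SmedASXL_006360 and SmedASXL_074705 were called lower in every state. Of the 152 falls of 4-fold or more, 86 of 133 tested were also lower in *yki(RNAi)* tails at 6 hpa, 63 of 128 at 24 hpa and 81 of 124 in intact animals. Of all transcripts tested in these states, 3.29%, 2.33% and 1.98% were lower.

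Outside the block, the abundant unnamed transcripts that rose most were SmedASXL_004625, SmedASXL_011160 and SmedASXL_013530. SmedASXL_004625 reached 14.6, 14.9 and 14.2 CPM in *yki(RNAi)* tails, against 2.42, 2.22 and 2.15 CPM in *control(RNAi)* tails, with a log2 fold change of 2.70 (SE 0.10, adjusted p = 1.92e-12). SmedASXL_011160 reached 31.0, 31.4 and 28.6 CPM in *yki(RNAi)* tails, against 6.05, 5.16 and 4.34 CPM in *control(RNAi)* tails, a log2 fold change of 2.57 (SE 0.092, adjusted p = 6.17e-13). SmedASXL_013530 was at 60.9, 57.5 and 57.2 CPM in *yki(RNAi)* tails and 12.7, 12.1 and 15.2 CPM in *control(RNAi)* tails, a log2 fold change of 2.14 (SE 0.070, adjusted p = 1.77e-13). In all 3 the groups did not overlap, which the rule that picked them required. The top unnamed rise by fold, SmedASXL_001581, was in the block and had 770 counts in *yki(RNAi)* and 2 in *control(RNAi)* libraries, a ratio of 381.8 (105.3 to 3158).

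The named genes that changed most were of unlike kinds. Among 208 tested transcripts with a gene name, 38 were higher and 48 lower, beside 9.57% and 9.95% of all tested transcripts. Part of the names come from the study's lists of wound-induced genes and of genes higher in *yki(RNAi)* tails. Those lists were drawn up on these samples, so the counts are no independent evidence about named genes. The steepest fall was in a *lectin-like* gene (SmedASXL_004185), at 10.6, 10.7 and 8.42 CPM in *yki(RNAi)* tails and 1559, 1620.1 and 2114 CPM in *control(RNAi)* tails, a log2 fold change of -7.46 (SE 0.12, adjusted p = 1.01e-17). *CYP2J2* (SmedASXL_018870), a cytochrome P450 whose human relative oxidises fatty acids, was at 2.19, 2.82 and 1.11 CPM in *yki(RNAi)* and 45.6, 35.5 and 37.8 CPM in *control(RNAi)* tails (log2 fold change -4.26, SE 0.16, adjusted p = 8.06e-13). For both genes the groups lay far apart at 12 hpa. Among *control(RNAi)* intact animals they were uneven, from 60.1 to 670 CPM for the *lectin-like* gene and from 3.09 to 106 CPM for *CYP2J2*. A *mucin* (mucin_smed011311), of a family of secreted glycoproteins, was low in both groups, with 0.207, 0.182 and 0.463 CPM in *yki(RNAi)* and 1.16, 1.11 and 2.11 CPM in *control(RNAi)* tails (log2 fold change -2.37, SE 0.38, adjusted p = 1.31e-04). Tails of both groups largely lacked this *mucin*. In intact animals its mean was 22.3 CPM in *yki(RNAi)* and 26.9 CPM in *control(RNAi)*, and it was not called there (log2 fold change -0.30).

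The steepest named rise was in *SULT1C3* (SmedASXL_006173), a sulfotransferase, which was at 7.65, 7.88 and 8.10 CPM in *yki(RNAi)* tails and 2.33, 3.66 and 2.59 CPM in *control(RNAi)* tails, a log2 fold change of 1.49 (SE 0.14, adjusted p = 2.92e-07). *CC122* (SmedASXL_007127), named for a coiled-coil domain protein, was at 13.1, 19.0 and 18.4 CPM in *yki(RNAi)* tails and 6.65, 5.82 and 6.80 CPM in *control(RNAi)* tails (log2 fold change 1.39, SE 0.13, adjusted p = 2.44e-07). *SLC16A14* (SmedASXL_014404), a member of the monocarboxylate transporter family, was at 68.3, 66.8 and 64.3 CPM in *yki(RNAi)* tails against 28.3, 31.9 and 29.8 CPM in *control(RNAi)* tails (log2 fold change 1.16, SE 0.053, adjusted p = 2.20e-11). In these 3 genes the groups did not overlap, which the rule that picked them required. The study also picked *CC122* on these samples as higher in *yki(RNAi)* tails, so its direction is no independent evidence. *TMEM194A* (SmedASXL_014060), whose human relative is a protein of the inner nuclear membrane, rose at a low level, to 1.28, 2.32 and 1.805 CPM in *yki(RNAi)* tails against 0.838, 1.22 and 1.01 CPM in *control(RNAi)* tails (log2 fold change 0.83, SE 0.25, adjusted p = 0.0196). The call of *TMEM194A* was lost without replicate A or C of *control(RNAi)* or replicate B of *yki(RNAi)*, with log2 fold changes of 0.70, 0.83 and 0.61.

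**Figure D3:**
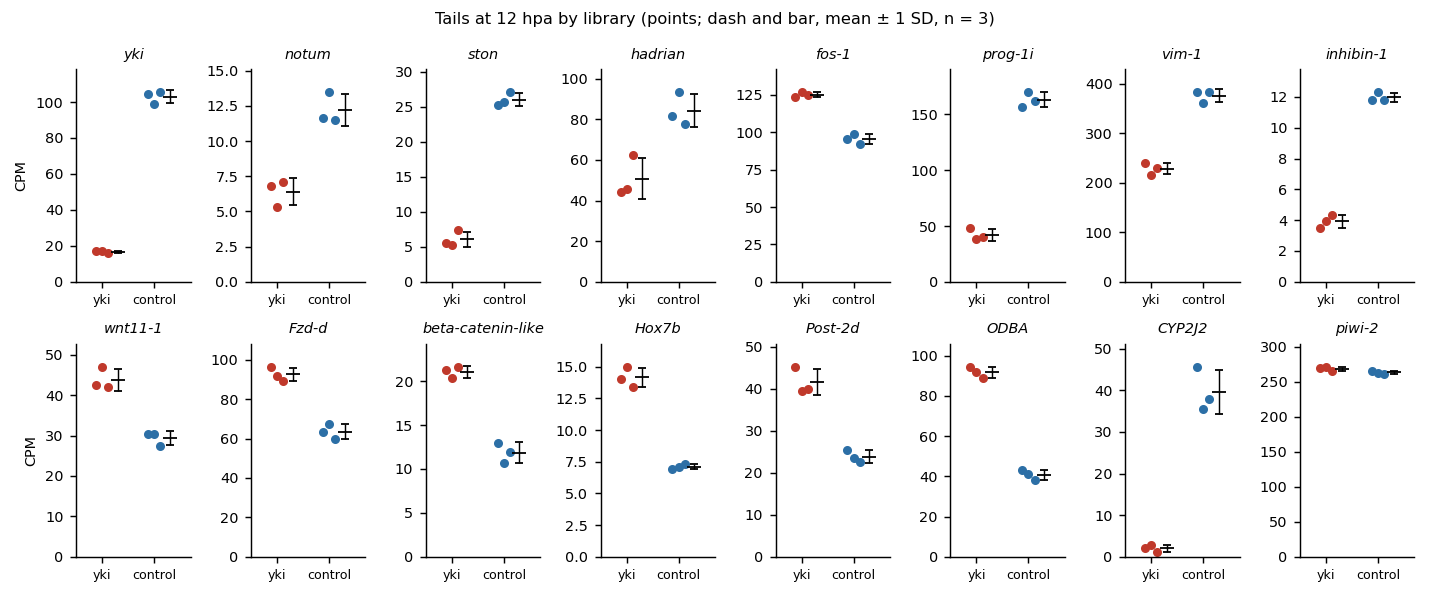
CPM in each library of *yki(RNAi)* (left) and *control(RNAi)* (right) tails at 12 hpa for 16 named genes, on linear axes that start at 0. Points are libraries, and the dash and bar are the mean ± 1 SD (n = 3 each), with no overlap between the groups where a gene was called.

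The 8 WNT ligands held 2 rises and 1 fall with *yki(RNAi)*, beside 9.57% higher and 9.95% lower of all tested transcripts. The median log2 fold change of the 8 was 0.27, beside 0.012 for all tested transcripts. *wnt11-1* (SmedASXL_016131), a ligand expressed in the planarian tail, was at 42.6, 47.0 and 42.0 CPM in *yki(RNAi)* tails and 30.4, 30.3 and 27.3 CPM in *control(RNAi)* tails, a log2 fold change of 0.59 (SE 0.060, adjusted p = 6.94e-07). *wntP-3/wnt11-4* (SmedASXL_001649) was at 2.48, 3.41 and 2.78 CPM in *yki(RNAi)* and 1.44, 1.28 and 1.71 CPM in *control(RNAi)* tails (log2 fold change 0.96, SE 0.19, adjusted p = 9.75e-04). The fall was in *wnt2-1* (SmedASXL_004272), a ligand of the planarian head, which was near the lower end of detection at 0.662, 0.956 and 0.602 CPM in *yki(RNAi)* and 1.77, 1.61 and 1.14 CPM in *control(RNAi)* tails (log2 fold change -0.999, SE 0.26, adjusted p = 0.00798). This call was lost in either sequencing lane alone. *wnt1/wntP-1*, the wound-induced ligand required for tail regeneration, was not called, with 3.76 ± 0.152 CPM in *yki(RNAi)* and 3.19 ± 0.361 CPM in *control(RNAi)* tails and a log2 fold change of 0.25 (SE 0.14, adjusted p = 0.202). The posterior ligands *wnt11-2* and *wntP-2/wnt11-5*, at log2 fold changes of 0.29 (SE 0.071, adjusted p = 0.00529) and 0.30 (SE 0.063, adjusted p = 0.00132), passed the adjusted p but stayed under the fold minimum. Without replicate A of *control(RNAi)* both passed, which took the count of higher ligands to 4.

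The secreted WNT inhibitors moved in both directions. *notum* (SmedASXL_009180) encodes a secreted enzyme that removes the lipid of WNT proteins, is induced at planarian wounds and is required for head regeneration. It was at 6.83, 5.33 and 7.08 CPM in *yki(RNAi)* tails and 11.6, 13.5 and 11.5 CPM in *control(RNAi)* tails, a log2 fold change of -0.91 (SE 0.11, adjusted p = 4.79e-06), with no overlap. *sfrp2* (SmedASXL_009354), a secreted Frizzled-related protein, went the other way, at 8.89, 9.61 and 8.70 CPM in *yki(RNAi)* and 6.33, 5.88 and 6.01 CPM in *control(RNAi)* tails (log2 fold change 0.59, SE 0.096, adjusted p = 1.52e-04). *glypican-1*, a membrane-bound heparan sulphate proteoglycan, fell by 0.35 on the log2 scale (SE 0.050, adjusted p = 3.45e-05), a call that was lost without replicate B of *yki(RNAi)*, where the log2 fold change was -0.31. *sfrp-1*, an anterior inhibitor in planarians, and *sfrp3* were not called (0.28 and 0.17 on the log2 scale). Over the 5 inhibitors and heparan sulphate genes the median log2 fold change was 0.17, with 1 rise and 2 falls.

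Among WNT receptors, *Fzd-d* (SmedASXL_012003) rose, at 96.3, 92.0 and 89.4 CPM in *yki(RNAi)* tails and 63.4, 67.4 and 59.8 CPM in *control(RNAi)* tails (log2 fold change 0.56, SE 0.049, adjusted p = 1.41e-07). *Fzd-4-2*, *LGR4* and *LGR4l*, the last 2 named for receptors of R-spondins, were not called, and the median of the 4 was 0.054. Of 3 genes for WNT secretion, *porcnA* (SmedASXL_010291), named for the acyltransferase that lipidates WNT proteins, rose to 830.4, 825 and 813 CPM in *yki(RNAi)* tails against 644, 620.5 and 661 CPM in *control(RNAi)* tails (log2 fold change 0.37, SE 0.039, adjusted p = 1.29e-06). *porcn-B* and *Evi/Wls*, the carrier of WNT proteins to the cell surface, were not called (log2 fold changes of -0.0041 and -0.13). Inside the cell, a *beta-catenin-like* gene (SmedASXL_012031) was at 21.2, 20.3 and 21.6 CPM in *yki(RNAi)* and 13.0, 10.6 and 12.0 CPM in *control(RNAi)* tails, a log2 fold change of 0.83 (SE 0.076, adjusted p = 2.08e-07). The study picked this *beta-catenin-like* gene on these samples as higher in *yki(RNAi)* tails, so its direction is no independent evidence. *Sp5*, a transcription factor that is a direct WNT target in vertebrates, rose with a log2 fold change of 0.38 (SE 0.056, adjusted p = 5.07e-05). Neither *dvl-b* (Dishevelled), *APC* (part of the complex that degrades β-catenin) nor *TCF-3* was called, with log2 fold changes of -0.18, -0.0053 and 0.057.

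Hox genes were higher in 2 cases and lower in none. *Hox7b* (SmedASXL_008764) was at 14.1, 15.0 and 13.4 CPM in *yki(RNAi)* tails and 6.93, 7.10 and 7.32 CPM in *control(RNAi)* tails, a log2 fold change of 1.003 (SE 0.084, adjusted p = 7.11e-08). *Post-2d* (SmedASXL_012639), a posterior Hox gene, was at 45.2, 39.5 and 40.0 CPM in *yki(RNAi)* and 25.5, 23.5 and 22.6 CPM in *control(RNAi)* tails (log2 fold change 0.82, SE 0.063, adjusted p = 2.66e-08). The groups did not overlap for either gene. The study picked *Post-2d* on these samples as higher in *yki(RNAi)* tails, so its direction is no independent evidence. *Post-2c* and *Hox4b* were not called, with log2 fold changes of 0.27 (SE 0.084, adjusted p = 0.0235) and 0.21 (SE 0.070, adjusted p = 0.0353). Of 10 Hox and other axial transcription factors 7 passed the filter on low counts, of which 2 rose, none fell and the median was 0.27. *msh1* (SmedASXL_001191), a homeobox gene, rose at a low level, at 1.28, 2.14 and 1.62 CPM in *yki(RNAi)* and 1.02, 0.721 and 0.921 CPM in *control(RNAi)* tails (log2 fold change 0.91, SE 0.25, adjusted p = 0.0112). Its call was lost without replicate B of *control(RNAi)* or of *yki(RNAi)*, at log2 fold changes of 0.78 and 0.69.

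Activin-type ligands fell. *inhibin-1* (SmedASXL_010438), a ligand of the TGF-β superfamily that is induced at planarian wounds, was at 3.47, 3.96 and 4.35 CPM in *yki(RNAi)* tails and 11.8, 12.3 and 11.8 CPM in *control(RNAi)* tails, a log2 fold change of -1.60 (SE 0.10, adjusted p = 2.65e-09). *activin* (SmedASXL_019422) was at 30.8, 31.2 and 28.3 CPM in *yki(RNAi)* and 45.8, 37.4 and 43.0 CPM in *control(RNAi)* tails (log2 fold change -0.47, SE 0.068, adjusted p = 4.00e-05). For both, every knockdown library lay below every control library. *inhibin-1* is in the study's list of earlier wound-induced genes, for which these *control(RNAi)* libraries were used. The direction of *inhibin-1* is therefore no independent evidence. Its fall was not particular to 12 hpa, since it was also called lower at 6 hpa, at 24 hpa and in intact animals. *follistatin*, which encodes a secreted inhibitor of activins required for planarian regeneration, had a log2 fold change of -0.23 (SE 0.073, adjusted p = 0.0249) and was not called. *noggin-like protein 1*, *smad23* and *activin-receptor-1* were not called either, so that 2 of 6 fell, none rose, and the median was -0.24.

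**Figure D4:**
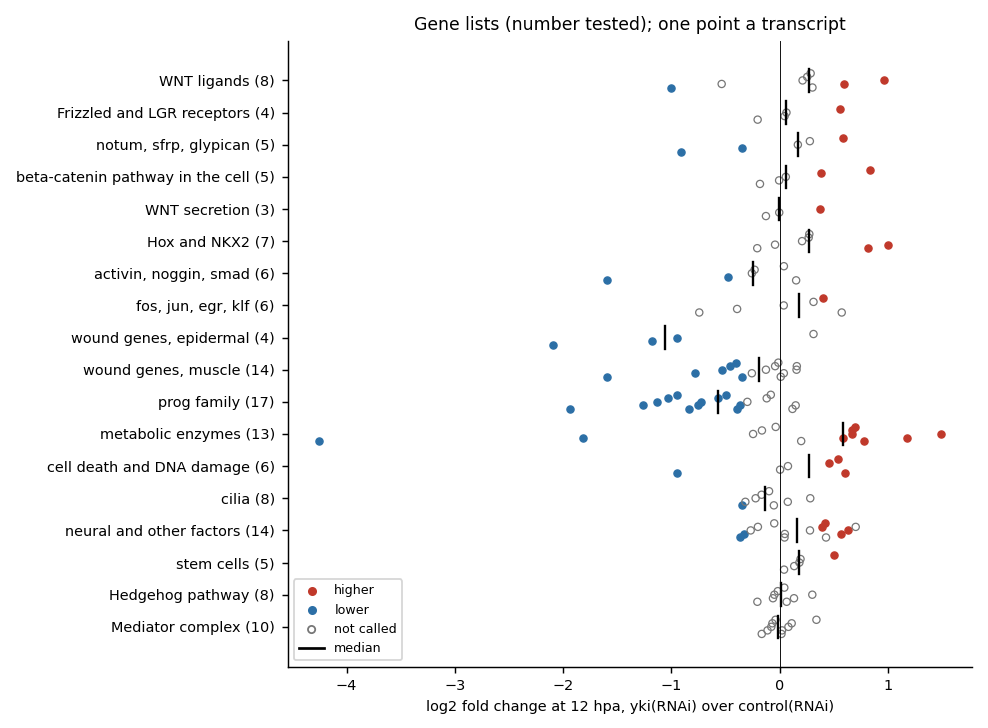
Log2 fold change of *yki(RNAi)* over *control(RNAi)* tails at 12 hpa for the tested members of 18 gene lists, 1 row per list and 1 point per gene. The members of the *prog* family lie mostly below 0, with 12 of 17 called lower and none higher, and those of the list of metabolic enzymes mostly above it, with 7 of 13 called higher and 2 lower. Part of the gene names come from the study's lists of genes chosen on these samples.

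Genes known as wound-induced from earlier work, of which the study's table keeps those that were higher in *control(RNAi)* tails than in intact *control(RNAi)* animals of this series, went both ways. Of 94 tested, 15 were higher and 33 lower, and the median was -0.064. Since these *control(RNAi)* libraries entered the choice of the genes, the counts of this list and of its tissues are no independent evidence of a direction. By the tissue the table gives, the 4 epidermal genes included 3 falls and no rise, with a median of -1.06, and the 14 muscle genes 6 falls and no rise, with a median of -0.19. *ston* (SmedASXL_006439), an epidermal wound gene, was at 5.50, 5.28 and 7.36 CPM in *yki(RNAi)* tails and 25.3, 25.6 and 27.1 CPM in *control(RNAi)* tails, a log2 fold change of -2.10 (SE 0.097, adjusted p = 2.50e-11). *SVOPL* (SmedASXL_011893), a member of the major facilitator family of transporters, was at 6.20, 7.01 and 5.83 CPM in *yki(RNAi)* and 13.7, 14.9 and 14.8 CPM in *control(RNAi)* tails (log2 fold change -1.18, SE 0.091, adjusted p = 2.40e-08). *TRAF-1* (SmedASXL_012058), an adaptor of TNF receptors, fell by 0.95 on the log2 scale (SE 0.077, adjusted p = 4.86e-08). These 3 showed no overlap between groups. The epidermal gene *hadrian* (SmedASXL_002439) was at 44.1, 45.6 and 62.6 CPM in *yki(RNAi)* and 81.4, 93.3 and 77.8 CPM in *control(RNAi)* tails (log2 fold change -0.72, SE 0.098, adjusted p = 2.38e-05), a call lost in the fit to all 24 libraries. The early response transcription factors, which are switched on within the first hours of a wound, held 1 rise and no fall among 6, with a median of 0.18. *fos-1* (SmedASXL_007106) was the rise, at 124, 127 and 124.6 CPM in *yki(RNAi)* and 95.3, 98.8 and 92.4 CPM in *control(RNAi)* tails (log2 fold change 0.40, SE 0.043, adjusted p = 1.25e-06). *jun-1* was not called (log2 fold change 0.31, SE 0.058, adjusted p = 5.31e-04), and *klf* (SmedASXL_005628) overlapped between groups, at 39.6, 35.5 and 18.9 CPM in *yki(RNAi)* and 34.7, 14.6 and 14.3 CPM in *control(RNAi)* tails.

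Most listed genes of the epidermal lineage were lower. Of 18 tested genes 13 were lower and none higher, beside 9.95% and 9.57% of all tested transcripts. The median log2 fold change was -0.63, and 12 of the 13 were *prog* genes, markers of post-mitotic epidermal progenitors in planarians. *prog-1i* (SmedASXL_013905) was at 48.1, 38.1 and 39.7 CPM in *yki(RNAi)* tails and 157, 170.0 and 162 CPM in *control(RNAi)* tails, a log2 fold change of -1.94 (SE 0.066, adjusted p = 2.82e-13). *prog2b* (SmedASXL_008106) was at 20.2, 20.2 and 18.4 CPM in *yki(RNAi)* and 56.3, 42.3 and 43.5 CPM in *control(RNAi)* tails (log2 fold change -1.26, SE 0.089, adjusted p = 7.85e-09). The eponymous *prog-1/NB.21.11e* (SmedASXL_011484) was at 9.10, 9.83 and 8.47 CPM in *yki(RNAi)* and 22.4, 17.2 and 16.8 CPM in *control(RNAi)* tails (log2 fold change -1.03, SE 0.10, adjusted p = 7.23e-07). In all 3 genes the groups were apart. Some of these genes were falling with time in *control(RNAi)* tails. Between 6 and 24 hpa the mean of *prog2b* went from 127 to 3.71 CPM and that of *prog-1/NB.21.11e* from 73.6 to 0.848 CPM. *prog-1i* did not fall, with means of 128 and 141 CPM. Whether the differences at 12 hpa reflect a shift in timing was not tested. *prog-2/NB.32.1g* (SmedASXL_073532) was at 114, 103 and 93.7 CPM in *yki(RNAi)* and 212, 153 and 154 CPM in *control(RNAi)* tails (log2 fold change -0.73, SE 0.094, adjusted p = 1.26e-05). *prog1c* was lower at a level near 1 CPM (log2 fold change -1.13, SE 0.23, adjusted p = 0.00132), and *prog2c* lost its call without replicate A of *control(RNAi)*, at -0.25. Outside the *prog* genes, *vim-1* (SmedASXL_004180), an intermediate filament gene of the later epidermal lineage, was at 239, 216 and 230.2 CPM in *yki(RNAi)* and 383, 359.8 and 383 CPM in *control(RNAi)* tails (log2 fold change -0.70, SE 0.046, adjusted p = 2.65e-09). Not all of the family moved this way, since *prog-1b* and *prog1g* had log2 fold changes of 0.15 (SE 0.039, adjusted p = 0.00900) and 0.12 (SE 0.043, adjusted p = 0.0465). The *prog* sequences are related and how reads shared between them were assigned is not stated, so the split between members is uncertain.

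Markers of dividing stem cells were low in both groups of irradiated tails. *piwi-1* (SmedASXL_008653), the main stem cell marker of planarians, was at 3.72, 3.23 and 3.47 CPM in *yki(RNAi)* tails and 2.65, 3.11 and 3.51 CPM in *control(RNAi)* tails, with overlap. *PCNA*, a clamp of DNA replication, was at 0.476 ± 0.0916 CPM in *yki(RNAi)* and 0.407 ± 0.192 CPM in *control(RNAi)* tails (SD, n = 3 each), and *mcm2*, *CyclinB2* and *PLK* did not pass the filter on low counts. *piwi-2* and *piwi-3*, which are not restricted to dividing cells, were not called (0.041 and 0.13 on the log2 scale). Of the 5 tested genes of the list, these 4 and *bruli*, only *bruli* was called, at a log2 fold change of 0.50 (SE 0.093, adjusted p = 5.14e-04), and the median was 0.18. It encodes an RNA-binding protein that is also expressed in planarian neurons.

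Neural and other transcription factors were called in 6 of 14 tested cases, 4 higher and 2 lower, beside 9.57% and 9.95% of all tested transcripts. *COE* (SmedASXL_000653), required for neuronal differentiation in planarians, was at 17.5, 16.5 and 14.3 CPM in *yki(RNAi)* tails and 10.1, 11.1 and 10.5 CPM in *control(RNAi)* tails, a log2 fold change of 0.63 (SE 0.085, adjusted p = 2.02e-05). *meis* and *DLL-2* rose with log2 fold changes of 0.57 (SE 0.12, adjusted p = 0.00169) and 0.39 (SE 0.090, adjusted p = 0.00332). *Dll-1* rose to a log2 fold change of 0.42 (SE 0.13, adjusted p = 0.0206), a call lost with DESeq2 and without any of 4 single libraries (replicates B and C of *control(RNAi)*, A and B of *yki(RNAi)*; 0.33 to 0.42). *ascl-1* and *hb-2* fell by 0.37 and 0.33 on the log2 scale, and both calls were lost without replicate C of *control(RNAi)*, at -0.29 and -0.23. Among 7 RNA-binding proteins, *METTL3*, whose human relative writes the m6A mark on mRNA, was one of 2 rises (log2 fold change 0.35, SE 0.070, adjusted p = 9.71e-04), and *elav-2*, of a family of neuronal RNA-binding proteins, was one of 2 falls (-0.44, SE 0.065, adjusted p = 5.87e-05). Of 8 cilia genes 1 fell, *IFT88*, which encodes a subunit of the transport complex of cilia (log2 fold change -0.35, SE 0.061, adjusted p = 2.82e-04), and the median was -0.13. That count is near the 9.95% of all tested transcripts that fell. *delta-like 4*, a Notch ligand, fell with a log2 fold change of -0.36 (SE 0.062, adjusted p = 3.07e-04), whereas *notch 1* was not called (0.16). The call of *delta-like 4* was lost without replicate B of *control(RNAi)* or C of *yki(RNAi)*, at -0.31 and -0.32.

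Cell death and DNA damage genes were called higher in 3 of 6 cases and lower in 1, beside 9.57% and 9.95% of all tested transcripts, with a median of 0.27. *TRAF-2* (SmedASXL_010300) was at 13.0, 13.5 and 14.6 CPM in *yki(RNAi)* tails and 9.07, 10.1 and 9.43 CPM in *control(RNAi)* tails, a log2 fold change of 0.54 (SE 0.082, adjusted p = 7.99e-05), and thus opposite in direction to *TRAF-1* above, the fall of the list. A *death domain containing* gene (SmedASXL_010139) was at 52.3, 53.1 and 49.4 CPM in *yki(RNAi)* and 35.1, 35.3 and 32.3 CPM in *control(RNAi)* tails (log2 fold change 0.61, SE 0.053, adjusted p = 1.06e-07). *RAD50* (SmedASXL_006969), which takes part in the repair of DNA double-strand breaks, was at 14.3 ± 1.29 CPM in *yki(RNAi)* and 10.5 ± 0.552 CPM in *control(RNAi)* tails (SD, n = 3 each), a log2 fold change of 0.46 (SE 0.086, adjusted p = 5.84e-04). *ATM* and *Ku80*, which act in the same repair, were not called (-0.20 and 0.25). *HSPA5* (SmedASXL_018703), a chaperone of the endoplasmic reticulum, fell to 706, 683 and 697 CPM in *yki(RNAi)* tails against 989, 957 and 888 CPM in *control(RNAi)* tails (log2 fold change -0.43, SE 0.042, adjusted p = 5.03e-07), whereas the related *HSPA4L* was not called (0.20).

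Of 3 muscle genes 2 fell and 1 rose. *XIRP2* (SmedASXL_007017), which encodes an actin-binding protein of striated muscle in vertebrates, was at 109, 105 and 106 CPM in *yki(RNAi)* tails and 171, 183 and 185 CPM in *control(RNAi)* tails, a log2 fold change of -0.74 (SE 0.045, adjusted p = 1.12e-09). A gene for a chain of type IV collagen (SmedASXL_018147), part of the basement membrane, was at 94.6, 81.5 and 81.5 CPM in *yki(RNAi)* and 116, 112 and 115 CPM in *control(RNAi)* tails (log2 fold change -0.40, SE 0.053, adjusted p = 1.81e-05). *collagen-alpha-5* (SmedASXL_072110) was the rise, at 5.17, 6.01 and 6.02 CPM in *yki(RNAi)* and 2.88, 3.38 and 3.64 CPM in *control(RNAi)* tails (log2 fold change 0.80, SE 0.13, adjusted p = 1.82e-04). Libraries of the 2 groups were separate for each of them. The study picked *collagen-alpha-5* on these samples as higher in *yki(RNAi)* tails, and the type IV collagen gene is in its list of earlier wound-induced genes. Their directions are therefore no independent evidence. Among 13 extracellular proteins with thrombospondin, von Willebrand or mucin domains, 2 were higher and 5 lower, with a median of -0.25. *SBSPON* (SmedASXL_009412) was the larger rise, at 63.6, 61.6 and 58.3 CPM in *yki(RNAi)* and 28.4, 29.9 and 28.1 CPM in *control(RNAi)* tails (log2 fold change 1.1002, SE 0.052, adjusted p = 3.13e-11). The *spondin* transcript SmedASXL_019263 rose, with a log2 fold change of 0.48 (SE 0.042, adjusted p = 1.34e-07), and that named spondin_smed012475 fell, at 0.455, 0.546 and 0.602 CPM in *yki(RNAi)* and 1.63, 1.05 and 2.11 CPM in *control(RNAi)* tails (log2 fold change -1.59, SE 0.29, adjusted p = 4.68e-04). In intact animals spondin_smed012475 had a mean of 10.6 CPM in *yki(RNAi)* and 12.4 CPM in *control(RNAi)* and was not called (log2 fold change -0.26). Several transcripts share the name *spondin*, and reads could be split between them.

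The listed metabolic enzymes were mostly higher. Of 13 tested, 7 were higher and 2 lower, beside 9.57% and 9.95% of all tested transcripts, with a median log2 fold change of 0.59. Part of the names come from the study's lists of genes chosen on these samples, so the counts are no independent evidence of a direction. Apart from *SULT1C3* the rises included enzymes that break down amino acids and ketone bodies. *ODBA* (SmedASXL_003783), a subunit of the dehydrogenase of branched-chain 2-oxo acids, was at 94.4, 92.0 and 88.7 CPM in *yki(RNAi)* tails and 43.2, 40.9 and 38.4 CPM in *control(RNAi)* tails, a log2 fold change of 1.18 (SE 0.050, adjusted p = 7.54e-12). *KYNU* (SmedASXL_019407), kynureninase of tryptophan breakdown, was at 43.4, 40.7 and 37.1 CPM in *yki(RNAi)* and 25.2, 21.8 and 24.3 CPM in *control(RNAi)* tails (log2 fold change 0.77, SE 0.067, adjusted p = 9.70e-08). Both were higher in every knockdown library than in any control library. *SCOT1* (SmedASXL_016550), which activates ketone bodies for oxidation, was at 281, 263 and 257 CPM in *yki(RNAi)* and 168, 169 and 170.0 CPM in *control(RNAi)* tails (log2 fold change 0.67, SE 0.043, adjusted p = 1.98e-09). *CPO*, a carboxypeptidase, and *L3HYPDH*, which dehydrates hydroxyproline, rose with log2 fold changes of 0.70 (SE 0.062, adjusted p = 1.47e-07) and 0.59 (SE 0.11, adjusted p = 6.95e-04). The 2 falls were *CYP2J2* above and *PHYHD1* (SmedASXL_004098), a relative of phytanoyl-CoA dioxygenase, at 5.87, 5.69 and 6.11 CPM in *yki(RNAi)* and 21.5, 21.3 and 20.0 CPM in *control(RNAi)* tails (log2 fold change -1.82, SE 0.078, adjusted p = 8.94e-12). *IMDH2*, *ALAD* and *PANK4*, of guanine nucleotide, haem and coenzyme A synthesis, were not called (log2 fold changes of 0.20, -0.037 and -0.16).

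Several lists held no call. None of 8 Hedgehog pathway genes was called, with log2 fold changes of -0.017 for the receptor *ptc*, 0.065 for *smoothened* and 0.30 for the transcription factor *gli-1*, and edgeR gave *gli-1* an adjusted p of 3.92e-04 under the fold minimum. *gli-1* passed without replicate A of *control(RNAi)* or C of *yki(RNAi)*. None of the 10 genes of the Mediator complex, a co-activator of RNA polymerase II, was called, and their median was -0.011. None of the 3 *ndk* genes, relatives of the FGF receptor-like head gene *nou-darake*, was called, at a median of 0.11.

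Of 436 tested transcripts that the study listed as wound-induced, 253 were lower and 46 higher in *yki(RNAi)* tails at 12 hpa, with a median of -0.52. Of the 2 shorter lists the study drew from the same libraries, 12 of 13 tested genes that are not enriched in tails were higher, with a median of 0.80, and 11 of 18 tail-enriched genes, with a median of 0.52, and neither held a fall. These 3 lists were likewise drawn up on these samples, so the counts are no independent evidence of a direction.

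Another set was taken from the *control(RNAi)* libraries at 6 hpa and of intact animals, which the 12 hpa comparison does not use. It compares tails with whole animals and so also takes in transcripts enriched in tails, among them *Hox7b* and *Post-2d*, at log2 fold changes of 2.09 and 1.58 in tails at 6 hpa over intact animals. Of 191 tested transcripts whose level in these tails was 2-fold or more that of the intact animals, 106 fell with *yki(RNAi)* at 12 hpa (55.5%) and 15 rose (7.85%). Their median was -0.44. Of 421 transcripts with such a rise at 24 hpa over intact *control(RNAi)* animals, 32.8% were lower and 18.8% higher. Falls were not particular to these classes, beside 9.95% lower and 9.57% higher of all tested transcripts. Of 487 transcripts at least 2-fold lower in *control(RNAi)* tails at 6 hpa than in intact animals, 34.3% were lower and 14.6% higher. Of 536 such transcripts at 24 hpa, 41.8% were lower and 6.16% higher.

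Transcripts were also sorted by their course in *control(RNAi)* tails between 6 and 24 hpa, again with no library of 12 hpa. Between these times 10.8% of 27449 tested transcripts were higher at 24 hpa and 10.1% lower, or 20.9% in all. Of 956 tested transcripts that were at least 2-fold higher at 24 than at 6 hpa, 347 were higher in *yki(RNAi)* tails at 12 hpa (36.3%) and 58 lower (6.07%). Of 347 transcripts at least 2-fold lower at 24 than at 6 hpa, 121 were lower (34.9%) and 9 higher (2.59%). The 25105 transcripts in neither class were higher in 8.50% and lower in 10.3% of cases. At a change of 25% between 6 and 24 hpa the shares were 26.1% higher and 7.96% lower for the risen, and 3.22% higher and 19.8% lower for the fallen. The share of the 2-fold risen class that was called higher was 23.9% without replicate B of *yki(RNAi)*, 19.2% with DESeq2 and 16.9% in the fit to all 24 libraries. It was 36.1% of 951 without the transcripts that follow the block near 0.

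Transcripts called in the other states, none of which shares a library with 12 hpa, were mostly called in the same direction at 12 hpa. Of 598 tested transcripts higher in *yki(RNAi)* tails at 6 hpa, 445 were higher at 12 hpa, and of 875 lower at 6 hpa, 748 were lower at 12 hpa, with none called the opposite way. At 24 hpa the counts were 264 of 371 and 545 of 638, with SmedASXL_010649 and SmedASXL_072863 called the opposite way, and in intact animals 236 of 427 and 386 of 487, with 5 and 8 called the opposite way. Read the other way, of the transcripts higher at 12 hpa the log2 fold change was above 0 in 86.1% of 2433 tested at 6 hpa, 77.6% of 2631 at 24 hpa and 57.9% of 2319 in intact animals, where their median was 0.082. Of those lower at 12 hpa, it was below 0 in 91.2% of 2709 at 6 hpa, 88.6% of 2668 at 24 hpa and 77.0% of 2630 in intact animals. In all 4 states 136 transcripts were higher and 189 lower. Fewer transcripts were called in the other states, with 605 higher and 884 lower at 6 hpa (2.25% and 3.29%, 5.54% in all), 372 and 644 at 24 hpa (1.35% and 2.33%, 3.67% in all) and 428 and 505 in intact animals (1.68% and 1.98%, 3.65% in all). The spread between replicates was also smallest at 12 hpa, with a biological coefficient of variation of 5.26%, against 10.99% at 6 hpa, 13.01% at 24 hpa and 10.83% in intact animals, so counts of calls do not rank the size of the effect.

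**Figure D5:**
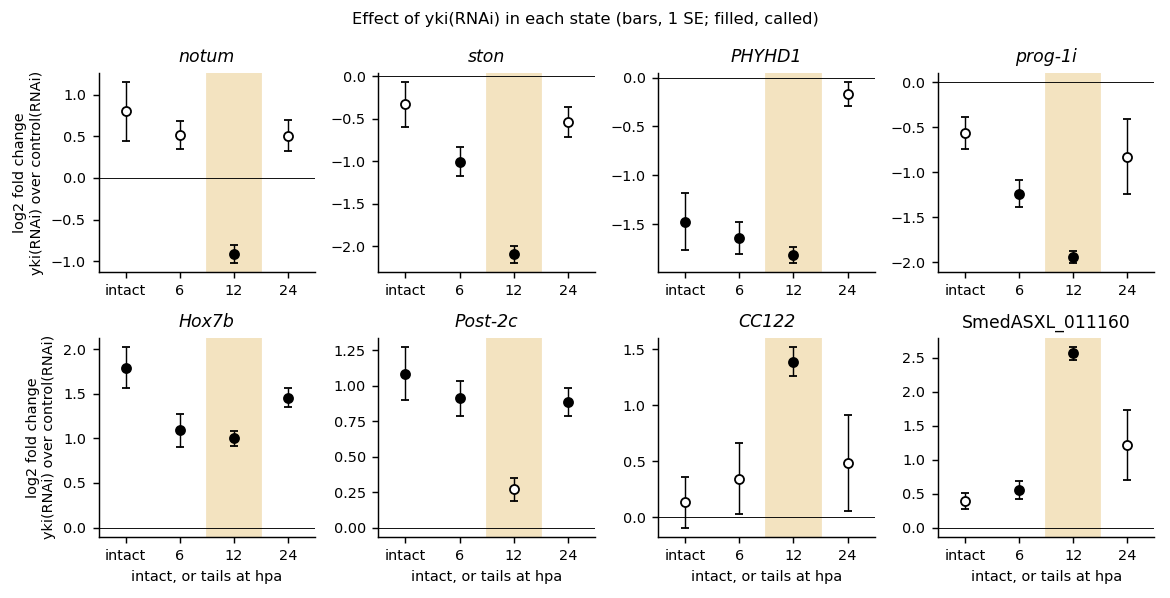
Log2 fold change of *yki(RNAi)* over *control(RNAi)* in intact animals and in tails at 6, 12 and 24 hpa for 8 transcripts, with bars of 1 SE. Filled points passed the test in that state and open points did not, and the band marks 12 hpa, where *notum*, *ston* and *PHYHD1* lay lower than at 24 hpa.

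The effect at 12 hpa was then tested against that in each other state, and the counts moved widely with single libraries. Against 6 hpa, 3 of 30484 transcripts (0.00984%) passed an adjusted p of 0.05 in edgeR's interaction test, 1 more positive (0.00328%) and 2 more negative (0.00656%) at 12 hpa, with 2933 at an unadjusted p under 0.05. *notum* was one of them, with a log2 fold change of 0.52 (SE 0.17, adjusted p = 0.110) at 6 hpa and a 12 hpa effect lower by a difference of -1.41 (SE 0.20, adjusted p = 0.0187). SmedASXL_011160 had a log2 fold change of 0.55 (SE 0.13, adjusted p = 0.0300) at 6 hpa, with a difference of 2.03 (SE 0.17, adjusted p = 4.52e-05). The third was SmedASXL_015000, named here after its value was seen. The call of *notum* was lost without any 1 of 4 libraries (replicate A of *control(RNAi)* and replicates A and B of *yki(RNAi)* at 6 hpa, and B of *control(RNAi)* at 12 hpa) and in the fit to all 24 libraries, where none passed. The count was 574 without replicate C of *control(RNAi)* at 6 hpa, 30 without replicate C of *yki(RNAi)* at 6 hpa and 80 with DESeq2.

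Against 24 hpa, 16 of 31216 passed (0.0513%), 6 more positive (0.0192%) and 10 more negative (0.032%) at 12 hpa, with 4291 at an unadjusted p under 0.05. *notum* had a log2 fold change of 0.51 (SE 0.19, adjusted p = 0.186) at 24 hpa, a difference of -1.43 (SE 0.22, adjusted p = 0.0229). *ston* had one of -0.54 (SE 0.18, adjusted p = 0.149) at 24 hpa and *PHYHD1* one of -0.17 (SE 0.12, adjusted p = 0.541), with differences of -1.57 (SE 0.21, adjusted p = 0.0185) and -1.65 (SE 0.14, adjusted p = 2.06e-04). All 3 genes were called lower at 12 hpa, and none of them was called at 24 hpa. The call of *PHYHD1* held without each single library but not in the fit to all 24. That of *ston* was lost without any 1 *control(RNAi)* library of 12 hpa, without replicate B of *yki(RNAi)* at 12 hpa and in the fit to all 24. That of *notum* was lost in the same 5 cases and also without replicate C of *yki(RNAi)* at 12 hpa or B of *control(RNAi)* at 24 hpa. The count itself ran between 1 and 871 with single libraries left out. It was 1 without any 1 *control(RNAi)* library of 12 hpa or replicate B of *yki(RNAi)* at 12 hpa, and highest without replicate C of *control(RNAi)* at 24 hpa.

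Against intact animals, 1664 of 31448 transcripts differed (5.29%), 785 more positive (2.5%) and 879 more negative (2.8%) in tails at 12 hpa. The count ran between 682 and 5008 with single libraries left out, the highest without replicate C of *control(RNAi)* intact animals. *CC122* had a log2 fold change of 0.14 (SE 0.23, adjusted p = 0.802) in intact animals, with a difference of 1.253 (SE 0.29, adjusted p = 0.0178), and *collagen-alpha-5* one of -0.21 (SE 0.22, adjusted p = 0.677), with a difference of 1.01 (SE 0.26, adjusted p = 0.0326). On the other side, *prog-1i* had a log2 fold change of -0.56 (SE 0.18, adjusted p = 0.113) in intact animals, with a difference of -1.36 (SE 0.21, adjusted p = 0.00170), and *prog-1/NB.21.11e* one of 0.33 (SE 0.24, adjusted p = 0.484), with a difference of -1.35 (SE 0.32, adjusted p = 0.0205). *ston* and *notum* were among the most negative, at differences of -1.76 (SE 0.27, adjusted p = 0.00127) and -1.72 (SE 0.34, adjusted p = 0.00845). Some posterior and WNT-related genes showed larger rises in intact animals than in tails at 12 hpa. This was not a contrast with tails at every time. Of 7 tested Hox and other axial transcription factors, 5 were higher in intact animals, 4 at 6 hpa, 2 at 12 hpa and 5 at 24 hpa. Their medians were 0.95, 0.64, 0.27 and 0.85. *Post-2c* had a log2 fold change of 1.08 (SE 0.19, adjusted p = 0.00726) in intact animals, with a difference of -0.81 (SE 0.20, adjusted p = 0.0248), and *Hox4b* one of 0.96 (SE 0.16, adjusted p = 0.00533), with a difference of -0.73 (SE 0.16, adjusted p = 0.0159). The corresponding values for *Sp5* were 1.05 (SE 0.17, adjusted p = 0.00391) and -0.65 (SE 0.18, adjusted p = 0.0434), and its rise was called in both states. *delta-like 4* and *glypican-1*, which fell in tails at 12 hpa, were not called in intact animals, at log2 fold changes of 0.37 and 0.29, and their differences passed, at -0.71 (SE 0.11, adjusted p = 0.00170) and -0.62 (SE 0.10, adjusted p = 0.00262). *innexin-1*, of the family that forms gap junctions, differed by -1.70 (SE 0.34, adjusted p = 0.00817), but its fall at 12 hpa, with a log2 fold change of -0.50 (SE 0.16, adjusted p = 0.0211), was lost without any of 4 single libraries.

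The tail label was checked on transcripts of the rest of the body. In *control(RNAi)* animals 157 transcripts were at least 8-fold lower in tails at 6 and 24 hpa than in intact animals, and their summed level at 12 hpa was 1.085%, 1.097% and 2.87% of that of intact *control(RNAi)* animals in *yki(RNAi)* tails, against 3.85%, 2.71% and 4.75% in *control(RNAi)* tails. Both groups thus lacked these transcripts almost wholly, and their sums overlapped. Of 51 that passed the filter, 33 were lower, *mucin* above among them, and 2 higher in *yki(RNAi)* tails. Of the 152 falls of 4-fold or more, 15 were in this set. The part of the position of the cut in these falls was not tested.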

How the data were processed

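Raw counts per transcript were deposited by the authors for each of 2 sequencing lanes. Per the study's methods and the submitters' processing notes, reads were called with bcl2fastq 1.8.3, trimmed at the 3′ end and aligned by Bowtie2 2.2.4 against SmedASXL transcripts, whereas the counting tool is not given in the sources used here. The authors' DESeq2 fold changes and p-values, deposited beside the counts, were not used.

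Lanes were summed, and the row that names no transcript (6.84% to 7.05% of counts at 12 hpa) was left out. Of 82669 transcripts, 28391 passed edgeR's filterByExpr (minimum count 10, minimum total 15). They were normalised by TMM and tested with the quasi-likelihood F test of edgeR 4.0.16 (R 4.3.3) on the 6 libraries of 12 hpa, with Benjamini-Hochberg adjustment, and differences between states with an interaction term and no fold minimum. For replicate A of *yki(RNAi)* intact animals only the first lane was used, since entries of the second were damaged. The same steps were tested on simulated data.

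The replicates are labelled as biological. Replicates of 1 group differed by more than counting noise (chi-square per degree of freedom 2.09 to 4.92), so none was counted as a duplicate. The members and gene lists were chosen with earlier results of these data known. Named genes were the 12 largest called rises and falls without overlap among named transcripts of at least 1 CPM in the higher group, the 4 largest among unnamed ones of at least 10 CPM, up to 5 named transcripts of each interaction in each direction that were called at 12 hpa, *yki*, and up to 6 members of each list, called ones first. Outside this rule, *SCOT1*, *L3HYPDH*, *IMDH2*, *ALAD*, *PANK4*, *vim-1*, *prog-2/NB.32.1g*, *prog2c*, *prog-1b*, *prog1g*, *ATM* and *Ku80* were named after their values were seen. Alternatives were DESeq2 1.42.0, other scalings and filters, a fit to all 24 libraries, single lanes, a replicate block and leaving out each library. Sequences were not used here, and 1 gene is not reported here.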

Additional observations from a re-analysis of the deposited data

Results flagged for a closer look

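The results here stand out because the effect of *yki(RNAi)* at 12 hpa differed from that in another state by edgeR's interaction test at an adjusted p under 0.05. Differences are log2 fold changes at 12 hpa minus those in the other state.

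Against tails at 6 hpa, *notum* differed by -1.41 (adjusted p = 0.0187), SmedASXL_015000 by -1.20 and SmedASXL_011160 by 2.03 (adjusted p = 4.52e-05). Against tails at 24 hpa, *notum* differed by -1.43, *ston* by -1.57, *PHYHD1* by -1.65 and SmedASXL_010649, which was called lower at 24 hpa and higher at 12 hpa, by 0.92.

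Against intact animals, the transcripts with a more positive effect in tails at 12 hpa were *CC122* (1.253), *collagen-alpha-5* (1.01), SmedASXL_004625 (1.48), SmedASXL_011160 (2.19), SmedASXL_010649 (0.58) and SmedASXL_001581 (8.18). The last belongs to the block near 0 in *control(RNAi)* tails at 12 hpa, and its fitted value is no bound.

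Epidermal, muscle and wound genes with a more negative effect at 12 hpa than in intact animals were *prog-1i* (-1.36), *prog-1/NB.21.11e* (-1.35), *prog-2/NB.32.1g* (-1.09), *prog2b* (-1.26), *vim-1* (-0.56), *ston* (-1.76), *innexin-1* (-1.70), *XIRP2* (-0.51) and *COL4A2* (-0.79). The 4 *prog* genes were called lower at 12 hpa, and none of the 4 was called in intact animals.

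Genes of the WNT and Notch pathways and of the Hox family with a more negative effect at 12 hpa were *notum* (-1.72), *glypican-1* (-0.62), *Evi/Wls* (-0.58), *Sp5* (-0.65), *delta-like 4* (-0.71), *notch 1* (-0.50), *Post-2c* (-0.81) and *Hox4b* (-0.73). *Evi/Wls* was called higher in intact animals, with a log2 fold change of 0.46, and was not called at 12 hpa. SmedASXL_015000 also had a more negative effect (-1.30). The metabolic enzymes *L3HYPDH* (-0.91), *CPO* (-0.56) and *ALAD* (-0.52) also differed. *L3HYPDH* and *CPO* were called higher in both states, with log2 fold changes of 1.52 and 1.27 in intact animals.

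These differences rest on 3 libraries a group, and in the fit to all 24 libraries 16 of the 34 no longer passed.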

How the results depend on the processing

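The counts at 12 hpa kept within 1.5 times under most alternatives, and no named result turned its direction. With DESeq2's Wald test 1641 transcripts were higher, against 2718 with edgeR, and with a minimum of 1.5-fold or 2-fold the counts were 1560 and 710 higher and 1622 and 707 lower. Leaving out single libraries gave 2182 to 3036 higher and 2394 to 2945 lower. Of 103 named transcripts tested, 71 were called, and 5 calls were lost with DESeq2, 10 in the fit to all 24 libraries and 2 to 6 without single libraries.

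The share called higher of transcripts that rose between 6 and 24 hpa in *control(RNAi)* tails was 36.3%, and was 19.21% with DESeq2, 16.93% in the fit to all 24 libraries, 13.08% at 2-fold and 23.89% to 44.01% without single libraries. The share called lower of those that fell was 34.87%, and was 15.85% at 2-fold, 19.77% where a control change of 25% was enough and 31.48% to 35.57% without single libraries.

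The interaction counts depended most on the processing. Without a filter on low counts they were 545 against 6 hpa, 658 against 24 hpa and 2614 against intact animals. With DESeq2 they were 80, 349 and 1671, and in the fit to all 24 libraries 0, 1 and 1316. Without single libraries they ran from 2 to 574, from 1 to 871 and from 682 to 5008. The cause was not tested.

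Libraries of the same letter correlated weakly in their deviations from the group means (0.063 for A, 0.023 for B, 0.094 for C), so the letters were not taken as pairs, though each library correlated best with its own letter. With the letter as a replicate block 2825 transcripts were higher and 2905 lower, with shares of 39.02% and 36.02% for the risen and fallen classes, and the interaction counts were 4, 33 and 1675. Single lanes, upper-quartile scaling (3159 higher, 2498 lower) and a minimum of 1 CPM in 3 libraries gave counts within 1.5 times. The removal of the block near 0 was chosen after seeing the data. Depth limits transcripts near 1 CPM, such as *wnt2-1*, *mucin* and *PCNA*.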
